A study of Mus musculus with 23 samples.

Results

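The Hox genes of adult mouse sciatic nerve (SN) are described here across 7 groups of bulk RNA-seq libraries. Members were all protein-coding genes whose symbol is Hox, a cluster letter from a to d and a number, and this rule found 39 genes among the 43068 genes listed for the crush libraries and the same 39 among the 22880 genes listed for the inducible knockout (iKO) libraries. The crush libraries came from wild-type male mice of C57bl6 background, 2 months old: nerves 3 days post crush (3 dpc, called crushed below, n = 4), taken distal to the injury, the uninjured nerve of the other side (contralateral, n = 4), and nerves of surgery controls that had no crush (uncrushed, n = 3). The iKO libraries came from mice homozygous for floxed Dgcr8 or floxed Dicer1 on a C57bl6 background, 3 months post tamoxifen (3 mpT), with n = 3 each of Dgcr8 iKO, Dgcr8 control, Dicer iKO and Dicer control. Mutants carried 1 copy of the P0-CreERT2 transgene (genotype P0-CreERT2 -/+), controls carried none (P0-CreERT2 -/-), and mutants and controls all received tamoxifen at 8 to 10 weeks of age. This Cre acts in myelinating Schwann cells (SCs), so other cells of the mutant nerve kept the floxed alleles whole, and the mutants sequenced were chosen for an affected nerve morphology. The study counts replicates as mice. No label ties a crushed nerve to the contralateral nerve of the same mouse.

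HOX proteins are homeodomain transcription factors that give cells their position along the head-to-tail axis. The genes lie in clusters in which the order on the chromosome follows the order along the body: low paralog numbers are used from the hindbrain backward, middle numbers in neck and trunk, and high numbers in the lumbosacral and tail regions and in the distal limb. Adult cells, fibroblasts above all, keep much of the Hox pattern of the place where they formed. The SN joins lumbar spinal segments to the hindlimb, and its SCs come from trunk neural crest.

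In GRCm38 coordinates, the HoxA cluster held 11 members over 105.3 kb of the minus strand of chromosome 6 (52155590 to 52260880). HoxB held 10 members over 173.9 kb of the plus strand of chromosome 11 (96194316 to 96368256). HoxC held 9 members over 115.8 kb of the plus strand of chromosome 15 (102921103 to 103036852), and HoxD held 9 members over 96.8 kb of the plus strand of chromosome 2 (74668310 to 74765142). Between and within the Hox genes lie the genes of the miR-10 and miR-196 families, which are known to pair with Hox messenger RNAs. Dgcr8 and Dicer both act in making such miRNAs, so the mature sequences are shown to compare with sites in Hox transcripts below. They are RefSeq sequences with GRCm38.p6 positions, and capitals mark the seed (bases 2 to 8).
mmu-miR-10a-5p: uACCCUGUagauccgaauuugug
mmu-miR-10b-5p: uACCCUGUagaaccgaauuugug
mmu-miR-196a-5p: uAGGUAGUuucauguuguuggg
mmu-miR-196b-5p: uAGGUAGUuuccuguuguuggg
Both miR-10 forms share 1 seed and both miR-196 forms share another. The mature miR-10a is encoded between Hoxb5 and Hoxb4 (chromosome 11, 96317186 to 96317208, plus strand) and miR-10b within the gene bounds of Hoxd3 and Hoxd4 (chromosome 2, 74726074 to 74726096, plus strand). miR-196a is encoded at 2 places, between Hoxb13 and Hoxb9 (chromosome 11, 96265187 to 96265208) and within the gene bounds of Hoxc5 (chromosome 15, 102973365 to 102973386), both on the plus strand. miR-196b lies within the gene bounds of Hoxa9 (chromosome 6, 52230129 to 52230150, minus strand). The levels of these miRNAs were not measured in the libraries used here.

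Libraries held 5594859 to 12806066 counts, so that 3 counts, the level below which a gene is not separated from 0 here, correspond to 0.234 to 0.536 CPM (the count scaled to library size). Protein-coding genes took 61.3 to 72.6% of the counts in crush libraries and 91.2 to 97.7% in iKO libraries. The labels also give the 2 experiments different library kits. Levels are therefore set side by side between experiments only as orders and shares of Hox genes, and no test was made between them. CPM values below were normalized by TMM (a scaling for library composition) within an experiment. SC identity was clear in uninjured nerves: the 9 markers of myelinating SCs (Mbp, Prx and others) summed to 42442 to 57999 CPM in uncrushed and contralateral libraries, 29288 to 48749 CPM in both kinds of iKO control, 1947 to 2921 CPM in crushed libraries, 15391 to 29879 CPM in Dgcr8 iKO and 23376 to 29212 CPM in Dicer iKO. Dgcr8 itself stood at 35.4, 38.4 and 41.8 CPM in Dgcr8 controls and at 39.4, 41.8 and 54.0 CPM in Dgcr8 iKO, and Dicer1 at 87.4, 88.1 and 90.5 CPM in Dicer controls and at 81.3, 82.0 and 82.1 CPM in Dicer iKO. These are totals over a whole gene, in which the loss of floxed exons need not show, and they do not check the genotype labels.

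The SN carried a mid-trunk Hox code at low levels in all 7 groups. All 39 Hox genes together made up 53.8 to 77.2 CPM of a library, before normalization. Of the 39 members, 15 exceeded 3 counts in all 23 libraries, 22 in some, and 2 (Hoxc12 and Hoxd1) in none. The 15 were 8 of the 15 members of the central paralog groups 4 to 8, 2 of the 8 members of the anterior groups 1 to 3 (Hoxb2, Hoxb3) and 5 of the 16 members of the posterior groups 9 to 13 (Hoxa9, Hoxa10, Hoxc9, Hoxc10, Hoxd9). By cluster, they were 6 of 9 in HoxC, 4 of 10 in HoxB, 3 of 11 in HoxA and 2 of 9 in HoxD.

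Levels of different genes were compared in TPM, which corrects for transcript length, rescaled in each library to the 21375 protein-coding genes that both experiments list. These genes held 2.70 to 8.19% of the deposited TPM in crush libraries and 88.3 to 96.6% in iKO libraries. Deposited TPM was rounded to 2 decimals, so low rescaled values move in coarse steps in crush libraries. The Hoxd1 value of 0.01 in each uncrushed library became 0.196 to 0.371 TPM. Hoxd8 had the highest median over the 23 libraries, at 10.7 TPM (5.88 to 24.0), followed by Hoxc6 at 7.51 TPM (2.75 to 13.8) and Hoxa7 at 6.47 TPM (1.36 to 10.9). All 3 are trunk-level genes of the middle of their clusters. Hoxb7 (4.03 TPM), Hoxc10 (3.86 TPM), Hoxa9 (3.72 TPM), Hoxc5 (3.62 TPM), Hoxc4 (2.93 TPM) and Hoxb4 (2.83 TPM) came next. Neighbours in this order overlapped widely: Hoxd8 was above Hoxc6 in 16 of 23 libraries, Hoxc6 above Hoxa7 in 15, Hoxa7 above Hoxb7 in 16, Hoxb7 above Hoxc10 in 12, Hoxc10 above Hoxa9 in 15 and Hoxa9 above Hoxc5 in 11. The 2 experiments differed here. Hoxd8 was the highest member in 12 of 12 iKO libraries but in only 4 of 11 crush libraries, and Hoxc6 was the highest in the other 7. Hoxc6 had the higher median in uncrushed (11.4 against 10.4 TPM) and contralateral nerves (12.8 against 10.02 TPM) and Hoxd8 in crushed nerves (10.3 against 8.63 TPM), with overlapping ranges in all 3 groups. The order pooled over the 2 experiments also depended on the scale. Rescaling multiplies each library by a constant, so it does not change the order of genes within a library. By the TPM as deposited, which is lower in the crush libraries throughout, the 6 highest medians were those of Hoxd8, Hoxc5, Hoxc6, Hoxb7, Hoxc4 and Hoxb4, of which Hoxd8, Hoxc6 and Hoxb7 were also among the 6 highest after rescaling. Hoxc5 ranked 16 of 39 among crush libraries and 4 of 39 among iKO libraries by this measure.

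**Figure D1:**
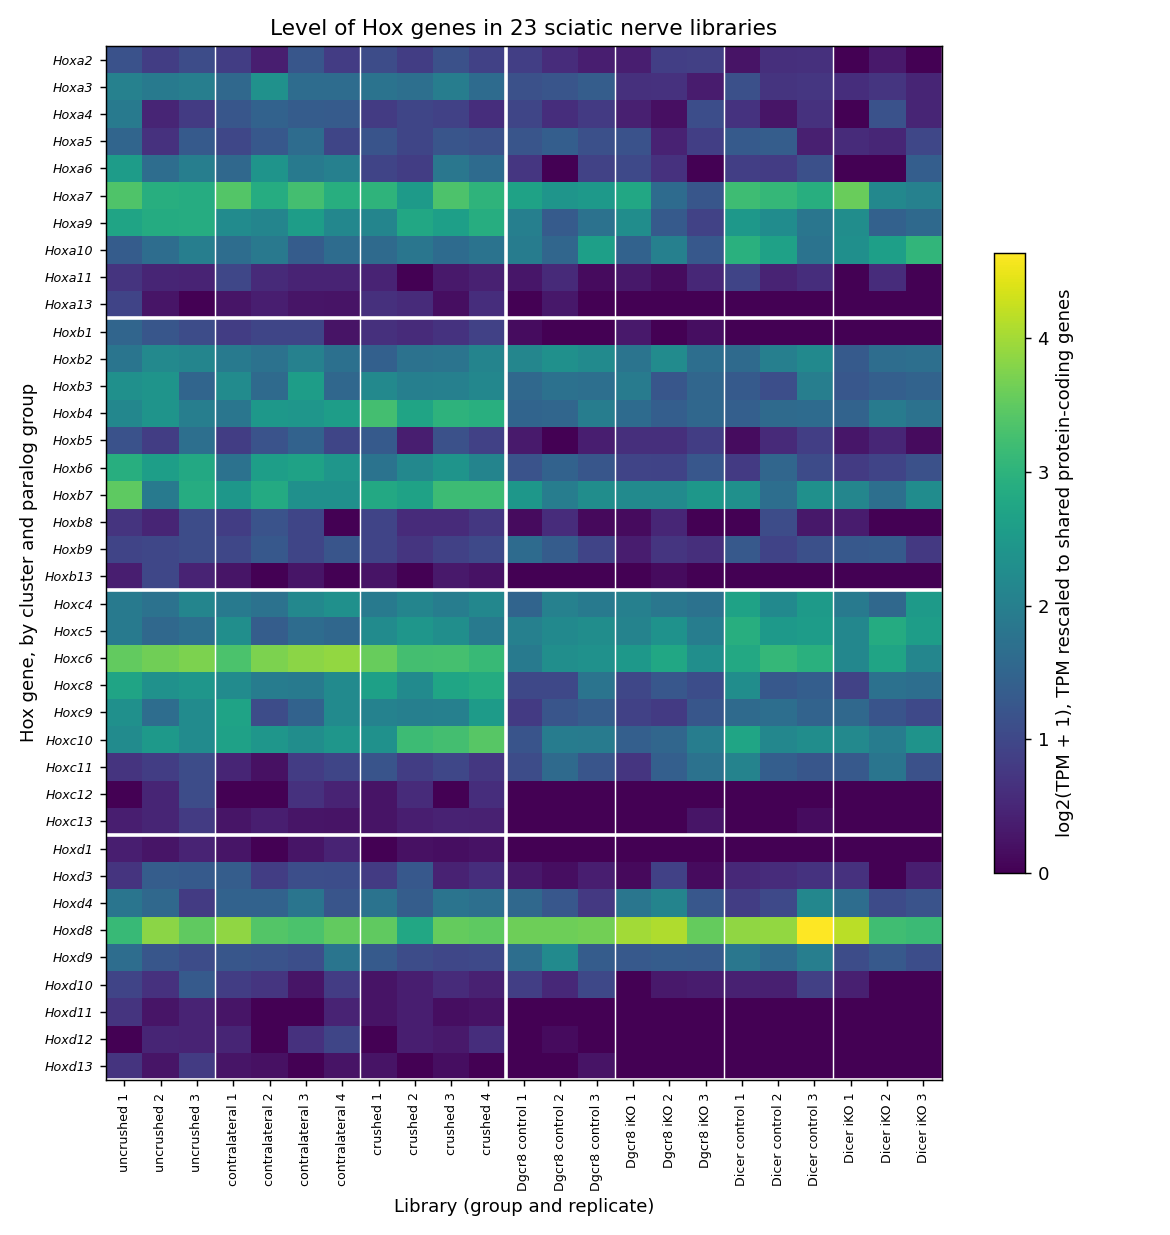
Level of Hox genes (rows, by cluster and paralog group) in each of the 23 libraries (columns, by group and replicate), as log2(TPM + 1) on a colour scale, with TPM rescaled to shared protein-coding genes. The bright rows are Hoxd8, Hoxc6 and Hoxa7, and the rows of groups 12 and 13 stay dark, at or below 1.11 TPM in every library.

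Summed over paralogs, the level climbed toward the middle of the clusters and dropped at the posterior end. Group 8 had the highest median sum, at 15.9 TPM (10.01 to 25.8), and groups 7 and 6 followed at 10.5 and 10.2 TPM. In the crush libraries alone, group 6 came first (18.6 TPM, 12.9 to 21.99) and group 8 second (15.9 TPM). Group 6 led in uncrushed and contralateral nerves, with medians of 21.1 and 21.4 TPM, and group 8 led in crushed nerves and in all 4 iKO groups. Groups 9, 4 and 10 had medians of 8.88, 8.44 and 7.75 TPM, and groups 5, 3 and 2 of 5.68, 4.23 and 3.53 TPM. The ends were low: group 1 had 0.76 TPM, group 11 had 1.57 TPM, group 13 had 0.23 TPM and group 12 was listed at 0 in the median library. Paralogs did not share a level. In group 8, Hoxc8 had a median of 2.70 TPM and Hoxb8 of 0.42 TPM, far under Hoxd8, and Hoxc10 and Hoxa10 (2.42 TPM) exceeded Hoxd10 (0.35 TPM) in group 10. Within each cluster, too, the level did not follow gene order: in HoxD, Hoxd8 stood beside Hoxd9 (1.46 TPM) and Hoxd4 (1.76 TPM), and in HoxA, Hoxa7 stood beside Hoxa6 (1.03 TPM).

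The members of groups 12 and 13 were at or near 0 in the median library. Of the 16 posterior members, 5 exceeded 3 counts in all 23 libraries, Hoxc10 among them. 10 members (Hoxa13, Hoxb1, Hoxb8, Hoxb13, Hoxc12, Hoxc13, Hoxd1, Hoxd11, Hoxd12 and Hoxd13) never exceeded 3 counts in an iKO library, where together they had 0 to 4 counts per library. In crush libraries the same 10 had 19.2 to 48.1 counts together, the most in uncrushed replicate 1. These counts were compared with those of Otx1 and Otx2, forebrain and midbrain genes that trunk nerve should lack. Otx1 had 4 to 21 counts (median 10) and Otx2 3 to 16 counts (median 8.01) in the crush libraries, against at most 1 and 2 counts in any iKO library. In the crush libraries 21 of the 39 Hox members had a median count at or below that of Otx1 and 19 at or below that of Otx2. Low Hox counts in the crush libraries were thus no higher than those of head genes, and whether they stand for expression was not tested.

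The mean paralog number moved little from group to group. Such a mean says little alone, since equal levels of all members would also put it near the middle of the scale. It also holds when both ends of the clusters change alike. The mean paralog number of a library, weighted by TPM, was 6.66 in the median library and ranged from 6.23 to 7.24 on a scale of 1 to 13. It was 6.56 ± 0.09 in uncrushed (mean ± SD, n = 3), 6.48 ± 0.22 in contralateral (n = 4) and 6.64 ± 0.14 in crushed nerves (n = 4). It was 6.67 ± 0.07 in Dgcr8 control, 6.60 ± 0.08 in Dgcr8 iKO, 6.99 ± 0.24 in Dicer control and 6.96 ± 0.21 in Dicer iKO nerves (n = 3 each). The crushed and mutant groups overlapped their controls, whereas all 6 libraries of the Dicer line (6.76 to 7.24) stood above all 6 of the Dgcr8 line (6.54 to 6.74). Weighted by CPM, the 2 lines overlapped. Central groups 4 to 8 took 58.7 to 72.1% of the summed TPM of a library (median 65.6%), posterior groups 17.2 to 31.7% and anterior groups 5.81 to 16.9%. The shares differed between some groups. In Dgcr8 iKO nerves the central share was 69.1 ± 3.1% (65.8 to 72.1%) against 61.6 ± 1.3% (60.2 to 62.8%) in Dgcr8 controls, the posterior share 19.4 ± 3.0% against 24.9 ± 1.1% and the anterior share 11.5 ± 0.83% against 13.5 ± 0.58%, in all 3 cases with no overlap. The anterior share of crushed nerves, 11.7 ± 0.75% (11.2 to 12.8%), lay below that of uncrushed nerves, 14.6 ± 2.03% (12.96 to 16.9%), and overlapped that of contralateral nerves (10.3 to 15%). These 4 differences had no overlap by CPM either. The anterior share was also lower in all 6 libraries of the Dicer line (5.81 to 9.78%) than in all 6 of the Dgcr8 line (10.8 to 14.05%), which overlapped by CPM. With 3 libraries against 3, a 2-sided exact permutation test cannot reach 0.05. No test was made for any of these shares, including those compared over more libraries. In the Dicer line iKO and control nerves overlapped, with central shares of 66.0 ± 4.1% in controls and 64.5 ± 3.6% in iKO nerves.

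The clusters contributed in different proportions in the 2 experiments. These also differ in library kit and in the genes listed, so nerve and method cannot be told apart here. HoxC had the highest group means in the crush experiment. It gave 29.5 ± 2.0% of the Hox TPM in uncrushed, 31.3 ± 3.3% in contralateral and 34.9 ± 2.5% in crushed nerves (crushed and uncrushed libraries did not overlap). HoxD had the lowest means, with 17.0 ± 3.3%, 17.9 ± 2.9% and 14.8 ± 1.5%. In uncrushed replicate 1 and contralateral replicate 2, HoxA and HoxB exceeded HoxC, and in contralateral replicate 1 HoxD exceeded HoxB. By CPM, all crushed libraries had more HoxC (33.0 to 39.0%) and less HoxD (13.8 to 16.1%) than any control library. In iKO libraries HoxD gave 25.7 ± 2.4% in Dgcr8 control, 30.7 ± 4.1% in Dgcr8 iKO, 26.6 ± 8.2% in Dicer control and 22.05 ± 7.3% in Dicer iKO nerves. By CPM, Dgcr8 iKO libraries lay above Dgcr8 controls for HoxD (30.8 to 38.9% against 24.0 to 29.8%). For HoxB they lay below by CPM (18.8 to 21.9% against 22.8 to 23.3%), and by TPM both shares overlapped. HoxA gave 24.9 ± 3.9% in Dgcr8 control and 18.2 ± 5.6% in Dgcr8 iKO nerves, ranges that overlapped. HoxB gave 16.1 ± 2.5% and 18.4 ± 2.5% in Dicer control and Dicer iKO, below the 24.1 ± 1.3% and 22.5 ± 2.8% of the Dgcr8 line, though by CPM the libraries of the 2 lines overlapped.

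**Figure D2:**
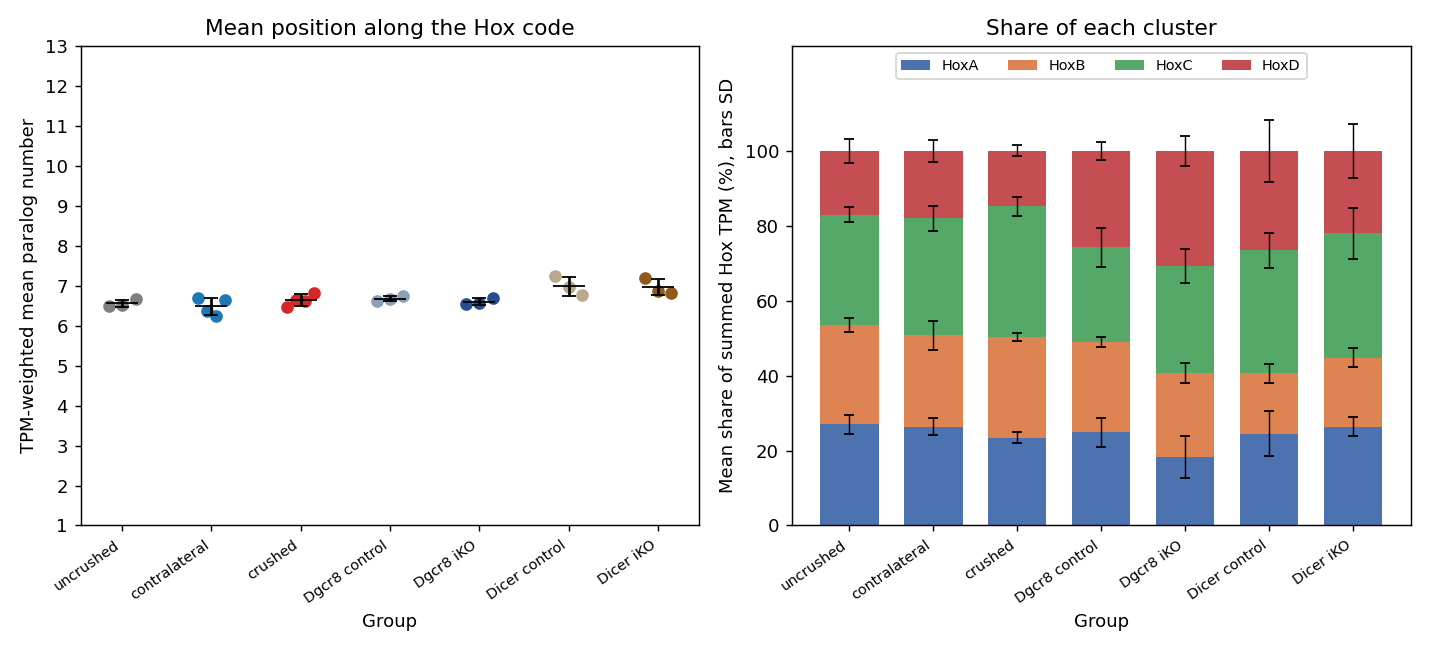
Left, TPM-weighted mean paralog number of each library (points) by group, with group mean and SD, on an axis from 1 to 13. Right, mean share of summed Hox TPM (%) from each cluster by group, stacked from 0, with SD bars. All 23 libraries lie between 6.23 and 7.24. The mean HoxD share is lower in the 3 crush groups (14.8 to 17.9%) than in the 4 iKO groups (22.05 to 30.7%), which differ in library kit too.

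The whole pattern was nearly as alike between conditions as between replicates. Over the 39 genes, the Spearman correlation of 2 libraries was 0.83 to 0.96 (median 0.90) for the 27 pairs within a group, 0.84 to 0.94 (median 0.89) for the 40 pairs from different groups of the crush experiment, and 0.82 to 0.95 (median 0.89) for the 54 pairs from different iKO groups. Crushed and uncrushed libraries correlated at 0.84 to 0.92 (median 0.88, 12 pairs). The 132 pairs across experiments reached 0.65 to 0.92 (median 0.82). These are descriptions across genes, which are not independent replicates, and the many members near 0 in every library raise all of them.

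Nerve injury was the first comparison. The question was whether the Hox genes followed the wide change in expression 3 days after crush, when myelinating SCs lose their myelin genes. In these tests a gene was called at a fold change of at least 2 and an adjusted p of at most 0.05 (edgeR's quasi-likelihood test, Benjamini-Hochberg adjustment over all genes tested), and log2 fold changes are given ± SE. None of the 19 Hox genes tested was called between crushed and uncrushed nerves, where 36.5% of 17433 genes were called. None of the 18 tested was called between crushed and contralateral nerves, where 28.3% of 16667 genes were called. At an unadjusted p under 0.05 and any fold, 6 of 19 and 7 of 18 members passed, against 70.1% and 69.5% of all genes, and DESeq2 called no member in either comparison. The other 20 or 21 members had too few counts to be tested.

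Without the fold limit, members did differ, in both directions. Hoxb4, Hoxc5 and Hoxc10 were higher in crushed than in uncrushed nerves (3 of 19, against 33.8% of all genes) and Hoxd8, Hoxb6 and Hoxb2 lower (3 of 19, against 33.4%), which makes 6 of 19 against 67.2% of all genes. Against contralateral nerves, which share the crushed libraries with the first comparison, Hoxb4, Hoxc5, Hoxc10 and Hoxc8 were higher (4 of 18, against 33.5%) and Hoxd8 and Hoxc6 lower (2 of 18, against 32.9%), which makes 6 of 18 against 66.4% of all genes. Hoxb4, Hoxc5, Hoxc6 and Hoxd8 were named by rule for their high TPM. Hoxb2, Hoxb6, Hoxc8 and Hoxc10 were chosen after their values were seen. The median size of the log2 fold change over the members tested was 0.31 in each comparison, against 0.75 and 0.60 over all genes. The 95% interval lay within a 2-fold change either way for 11 of 19 and 14 of 18 members, against 42.9% and 53.1% of all genes. In bulk nerve, a lower level per cell and fewer cells that carry a Hox gene cannot be told apart.

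Hoxb4 (chromosome 11, 96318267 to 96321638, ENSMUSG00000038692), an anterior to mid-trunk gene, stood at 2.73, 3.60 and 4.13 CPM in uncrushed, 2.36, 4.21, 4.40 and 4.72 CPM in contralateral and 5.30, 5.75, 6.42 and 7.70 CPM in crushed nerves. All 4 crushed libraries were above all 7 controls. The log2 fold change was 0.93 ± 0.22 against uncrushed (adjusted p = 0.0025) and 0.70 ± 0.21 against contralateral nerves (adjusted p = 0.0088). Without crushed replicate 2 or uncrushed replicate 2 the first value was 1.002 or 1.09, past 2-fold. Hoxb4 is annotated with a single transcript. Hoxc5 (chromosome 15, 102967443 to 103017429, ENSMUSG00000022485), of the cervical and upper trunk level, stood at 1.36, 2.13 and 2.34 CPM in uncrushed, 1.34, 2.15, 2.31 and 2.36 CPM in contralateral and 2.83, 3.58, 3.77 and 3.85 CPM in crushed nerves. Again no control library reached the lowest crushed library. The log2 fold change was 0.90 ± 0.25 (adjusted p = 0.0074) and 0.81 ± 0.21 (adjusted p = 0.0040). Without uncrushed replicate 1 the first value was 1.12, past 2-fold. Both genes passed the adjusted p under all 13 other settings against uncrushed and all 14 against contralateral nerves.

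Hoxc10, a lumbar and hindlimb gene, stood at 2.56, 2.70 and 3.25 CPM in uncrushed, 2.71, 3.06, 3.08 and 3.49 CPM in contralateral and 2.65, 5.62, 5.78 and 6.22 CPM in crushed nerves. 3 crushed libraries were above all controls and crushed replicate 1 was among them. The log2 fold change was 0.92 ± 0.30 (adjusted p = 0.016) and 0.72 ± 0.24 (adjusted p = 0.018), and 1.12 and 0.91 without crushed replicate 1, where the first passes 2-fold (adjusted p = 0.00075). The adjusted p against uncrushed nerves was 0.059 with a replicate block, and against contralateral nerves it reached up to 0.058 without crushed replicate 2, 3 or 4. Hoxc10 and Hoxc5 share 166 exon bases on 1 strand, so the counts of either may hold reads of the other. Hoxc8, a thoracic gene, stood at 3.25, 3.58 and 4.40 CPM in uncrushed, 2.11, 2.20, 2.83 and 2.97 CPM in contralateral and 2.93, 3.85, 4.13 and 4.43 CPM in crushed nerves. Crushed nerves had more than contralateral nerves (0.62 ± 0.21, adjusted p = 0.017), with 1 crushed library among them, and overlapped uncrushed nerves. This adjusted p reached up to 0.056 without contralateral replicate 3 or crushed replicate 3, and held in the other 12 of 14 settings. Contralateral libraries lay below all uncrushed libraries. A retained-intron transcript took 77.9% of the Hoxc8 counts of the crush libraries.

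Hoxd8 (chromosome 2, 74704615 to 74707933, ENSMUSG00000027102), the member with the highest median TPM over all libraries, stood at 7.82, 8.18 and 9.88 CPM in uncrushed, 7.85, 8.43, 9.24 and 9.84 CPM in contralateral and 4.89, 5.37, 5.78 and 6.78 CPM in crushed nerves. The crushed libraries lay below all 7 controls. The log2 fold change was -0.49 (-0.83 to -0.16, 95% interval, adjusted p = 0.022) against uncrushed and -0.61 (-0.89 to -0.34, adjusted p = 0.0013) against contralateral nerves, and the second passed the adjusted p under all 14 other settings, the first under 9 of 13. On the TPM scale the groups overlapped, with 7.74 to 13.3 TPM in uncrushed and 5.88 to 10.6 TPM in crushed nerves.

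Hoxc6 stood at 4.43, 4.88 and 5.21 CPM in uncrushed, 3.87, 5.03, 5.62 and 6.26 CPM in contralateral and 3.20, 3.83, 4.01 and 4.03 CPM in crushed nerves. It passed the adjusted p only against contralateral nerves (-0.44 ± 0.18, adjusted p = 0.039), where 1 control overlapped, and in 6 of 14 other settings. Hoxb6 stood at 3.07, 3.13 and 4.32 CPM in uncrushed and 1.60, 1.89, 2.28 and 2.29 CPM in crushed nerves (-0.72 ± 0.25, adjusted p = 0.021). Hoxb2, which acts in hindbrain patterning, stood at 2.70, 2.73 and 2.88 CPM in uncrushed and 1.28, 1.47, 1.55 and 2.17 CPM in crushed nerves (-0.68 ± 0.27, adjusted p = 0.044). Contralateral nerves overlapped crushed nerves for both, at 1.41 to 3.51 CPM for Hoxb6 and 1.74 to 2.41 CPM for Hoxb2, and neither gene passed the test against them. Hoxb6 passed the adjusted p in 9 and Hoxb2 in 5 of 13 other settings.

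**Figure D3:**
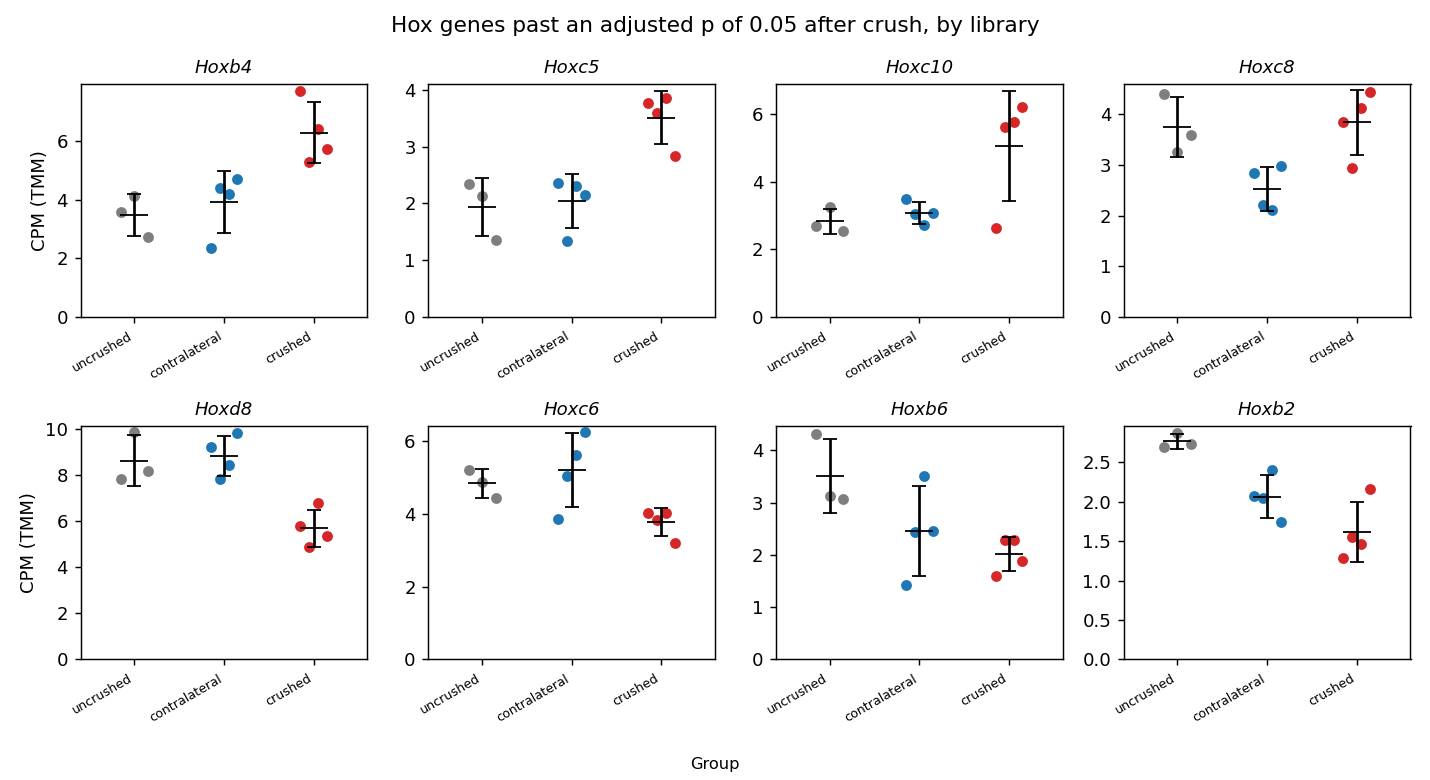
TMM-normalized CPM of the 8 Hox genes past an adjusted p of 0.05 in either crush comparison, 1 point per library by group, with mean and SD. Crushed libraries are above every control for Hoxb4 and Hoxc5 and below every control for Hoxd8, and crushed replicate 1 lies among the controls for Hoxc10.

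Hoxb7, Hoxc4, Hoxa7, Hoxa9 and Hoxa3 did not pass the adjusted p in either comparison. Hoxb7 stood at 1.25, 2.90 and 4.40 CPM in uncrushed, 1.60, 1.81, 1.85 and 2.51 CPM in contralateral and 2.44, 2.57, 3.02 and 3.21 CPM in crushed nerves. Hoxc4 stood at 1.75, 2.39 and 2.43 CPM in uncrushed, 1.81, 2.07, 2.61 and 2.97 CPM in contralateral and 2.01, 2.11, 2.36 and 2.44 CPM in crushed nerves. Crushed libraries overlapped the uncrushed ones for both, and the difference was under 1 SE. Hoxb7 gave 0.52 ± 0.23 against contralateral nerves (adjusted p = 0.054). Hoxa7 stood at 4.26, 4.38 and 5.30 CPM in uncrushed, 4.01, 4.41, 4.90 and 5.52 CPM in contralateral and 2.93, 3.69, 3.96 and 4.401 CPM in crushed nerves, which overlapped both controls (-0.23 ± 0.21 and -0.31 ± 0.18, adjusted p = 0.35 and 0.14). Hoxa9 stood at 2.90, 3.63 and 3.87 CPM in uncrushed, 2.45, 2.46, 2.51 and 3.61 CPM in contralateral and 1.93, 2.61, 2.66 and 2.83 CPM in crushed nerves, which lay below the uncrushed ones (-0.39 ± 0.24, adjusted p = 0.16) and overlapped the contralateral ones. Hoxa3 stood at 2.13, 2.22 and 2.52 CPM in uncrushed, 1.405, 1.60, 1.74 and 2.83 CPM in contralateral and 1.60, 1.74, 1.87 and 2.01 CPM in crushed nerves. Its crushed libraries lay below the uncrushed ones and within the contralateral range, and both differences were under 1 SE. Among the members tested, the groups did not overlap for 2 higher and 6 lower in crushed than in uncrushed nerves (29.8% and 35.7% of all genes tested), and for 2 higher and 1 lower against contralateral nerves (30.3% and 29.1%). Some members had too few counts to be tested. Of these, 6 of 20 lay lower in crushed than in uncrushed nerves without overlap (Hoxa11, Hoxb1, Hoxc13, Hoxd1, Hoxd10 and Hoxd13). Against contralateral nerves 2 of 21 lay lower (Hoxa4 and Hoxa11), and in neither comparison did any lie higher. The share over all genes too low to test was not computed, so these counts are not read as a fall of Hox genes.

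Cell makeup moved with the crush, as measured by marker lists. Of the 9 myelinating SC markers 8 fell in each crush comparison. All 6 macrophage markers rose (sum 44.8 to 87.8 CPM in the 7 controls, 210.0 to 449.8 CPM in crushed nerves), as did all 4 cycling-cell markers (16.7 to 37.5 CPM and 704 to 1060 CPM). Of the 7 fibroblast markers, 1 rose and 1 fell (sum 3875 to 4891 CPM and 2533 to 2978 CPM), and of the 4 perineurial markers 1 fell (sum 325 to 457 CPM and 106 to 122 CPM). Of the general SC markers, 1 of 5 rose (Foxd3) and 1 fell (S100b) against uncrushed and 2 fell against contralateral nerves. The endothelial marker Cdh5 and the neutrophil marker Retnlg rose in both comparisons, the lymphocyte marker Cd3d fell against uncrushed nerves, and no pericyte marker was called. The part of this in the Hox differences was not tested. The Hox genes together, before normalization, took 57.6 to 72.3 CPM in crushed, 58.8 to 71.4 CPM in uncrushed and 59.2 to 65.4 CPM in contralateral nerves.

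Contralateral and uncrushed nerves showed how far Hox levels moved with no crush in the nerve itself. None of 21 members and 0% of 17722 genes were called. At an unadjusted p under 0.05, 1 member (Hoxc8, -0.59 ± 0.24) and 17.9% of all genes passed, and DESeq2 called no member. The median size of the log2 fold change was 0.14 over the members and 0.18 over all genes. Contralateral libraries lay below all uncrushed libraries for 2 of the members tested, Hoxc8 and Hoxb2 (8.81% of all genes), and above them for none (6.87%). They also lay below for 2 of the 18 members not tested, Hoxb1 and Hoxc13, without a share over all untested genes to compare.

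Of the noncoding genes of the Hox clusters, Hoxb3os, Hoxaas2 and Hotairm1 fell after crush by more than 2-fold. Such genes are listed for the crush libraries only. Hoxb3os, an antisense transcript that overlaps exons of Hoxb2 and Hoxb3 by 953 and 2250 bases, stood at 7.33, 9.76 and 9.80 CPM in uncrushed, 7.49, 7.55, 8.03 and 9.42 CPM in contralateral and 2.25, 2.26, 2.29 and 2.44 CPM in crushed nerves. It fell by 1.86 on the log2 scale against uncrushed (adjusted p = 3.3e-06) and by 1.80 against contralateral nerves (adjusted p = 1.7e-07). Hoxb3 itself, on the other strand, was at 1.53 to 3.51 CPM in uncrushed and 1.96 to 3.20 CPM in crushed nerves. Hoxaas2, antisense to Hoxa3, stood at 2.52, 2.75 and 3.24 CPM in uncrushed, 2.17, 2.51, 2.67 and 3.21 CPM in contralateral and 0.47, 0.82, 0.92 and 1.69 CPM in crushed nerves, and fell by 1.40 (adjusted p = 0.0052) and 1.39 (adjusted p = 0.0014). Hotairm1, a noncoding gene of the HoxA cluster, stood at 1.51, 1.71, 1.96 and 2.05 CPM in contralateral and 0.24, 0.37, 0.38 and 0.48 CPM in crushed nerves and fell by 2.25 (adjusted p = 2.2e-05). It was not tested against uncrushed nerves, which held 1.02, 1.50 and 2.07 CPM. Hotairm1 (3 to 25 counts) and Hoxaas2 (5 to 32 counts) lay near the range of the head gene Otx1 (4 to 21 counts). Otx1 also fell, by 1.51 on the log2 scale against uncrushed nerves. Whether the low counts of these 2 noncoding genes stand for expression was not tested.

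Hoxd3os1, an antisense gene of the HoxD cluster, was not called. Hoxd3os1 stood at 1.19 to 1.62 CPM in uncrushed and 0.90 to 1.56 CPM in crushed nerves. Hotair, a noncoding gene of the HoxC cluster at 1.08 to 1.70 CPM in uncrushed and 0.41 to 0.73 CPM in crushed nerves, was not tested between them. Of the 20 listed genes inside or beside the clusters that are no members, 5 were tested against uncrushed nerves. There 2 fell and 1 (Mtx2, a mitochondrial gene beside HoxD) rose, where 36.5% of all genes were called. Against contralateral nerves 6 were tested and 3 fell, where 28.3% of all genes were called. Whether reads were assigned by strand is not given in the sources used here. Without it, reads of a Hox gene and of its antisense gene cannot be told apart, and 10 members share exon bases with a gene on the other strand.

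Loss of Dgcr8 or Dicer in adult SCs was the second question, with the same test. In Dgcr8 iKO nerves 2 of 17 Hox genes tested fell, Hoxa3 and Hoxa7, where 20.4% of 13252 genes were called and 6.99% were called lower. In Dicer iKO nerves 0 of 18 were called, where 9.01% of 13045 genes were called. At an unadjusted p under 0.05, 3 of 17 (52.3% of all genes) and 2 of 18 (36.3% of all genes) passed, and DESeq2 called Hoxa7 in the Dgcr8 line and no member in the Dicer line.

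Hoxa3 (chromosome 6, 52169062 to 52213336, minus strand, ENSMUSG00000079560), which patterns the pharyngeal arches and neck, stood at 1.42, 1.50 and 1.66 CPM in Dgcr8 control and 0.35, 0.57 and 0.59 CPM in Dgcr8 iKO nerves. Mutants and controls did not overlap, and the mutants were near the 3-count level. It fell by 1.57 ± 0.46 on the log2 scale (adjusted p = 0.016). In the Dicer line it stood at 0.66, 0.68 and 1.29 CPM in control and 0.42, 0.53 and 0.69 CPM in iKO nerves, which overlapped and were too low to be tested. A retained-intron transcript took 50.02% of its counts in iKO libraries.

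Hoxa7 (chromosome 6, 52214491 to 52221854, minus strand, ENSMUSG00000038236), a thoracic gene, stood at 3.40, 3.94 and 4.49 CPM in Dgcr8 control and 0.93, 1.14 and 3.18 CPM in Dgcr8 iKO nerves. The mutants lay below the controls, 1 of them close to the lowest control. It fell by 1.19 ± 0.43 (adjusted p = 0.044). In the Dicer line it stood at 3.24, 4.74 and 5.69 CPM in control and 2.35, 3.11 and 5.06 CPM in iKO nerves, which overlapped (-0.37 ± 0.37, adjusted p = 0.51). A transcript marked for nonsense-mediated decay took 68.0% of its counts in iKO libraries. Neither call was stable. Over the 6 fits that each left out 1 library, Hoxa3 was called in 4 and Hoxa7 in 1: Hoxa7 was called only without iKO replicate 1, the library at 3.18 CPM (-1.91, adjusted p = 0.0047), and its adjusted p was 0.069 to 0.13 in the other 5. Hoxa3 missed the adjusted p without control replicate 3 (0.056), without iKO replicate 3 (0.063) and in DESeq2 (0.0501).

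**Figure D4:**
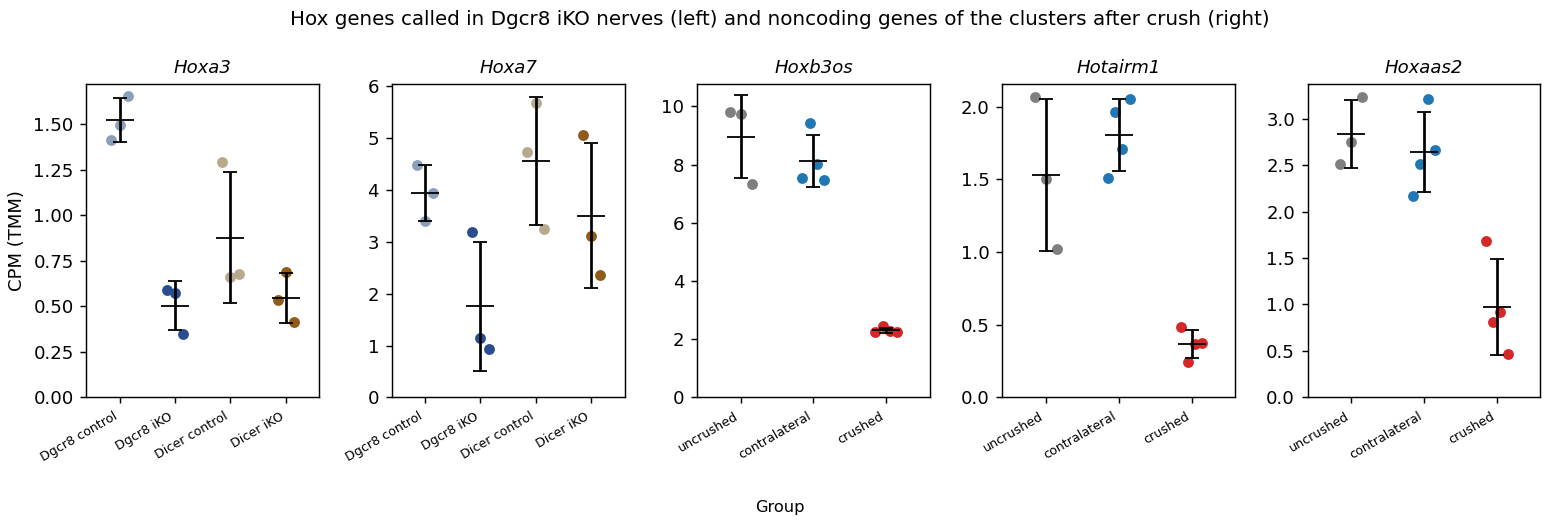
TMM-normalized CPM, 1 point per library by group with mean and SD, of the 2 Hox genes called in Dgcr8 iKO nerves (Hoxa3 and Hoxa7, 4 iKO groups) and of 3 noncoding genes of the clusters in the crush groups (Hoxb3os, Hotairm1 and Hoxaas2). Dgcr8 iKO libraries lie below Dgcr8 controls for both Hox genes, and crushed libraries lie below all controls for the 3 noncoding genes.

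The 2 genes carry sequences that pair with seeds of the clusters' own miRNAs, whose making needs Dgcr8 and Dicer. Below are the matches in the annotated 3′ UTR of the transcript with the longest one (GENCODE, GRCm38), each with 15 bases before it and 1 base after. Capitals mark the 7 bases that pair with seed bases 2 to 8. The letters searched on the transcript strand were ACTACCT for miR-196 and ACAGGGT for miR-10.
Hoxa7 site 1 (miR-196): aggcacagccaaaatACTACCTa
Hoxa7 site 2 (miR-196): gagaggcactcccaaACTACCTa
Hoxa7 site 3 (miR-196): caaaccatgatcaatACTACCTa
Hoxa7 site 4 (miR-196): tactactagccctaaACTACCTa
Hoxb7 site (miR-196): actgtaaaaaaatatACTACCTa
Hoxa3 site (miR-10): actctttgataagaaACAGGGTa
Hoxb3 site (miR-10): tgacttaacgtgaaaACAGGGTa
The 4 sites of Hoxa7 start at bases 310, 347, 479 and 500 of its 3′ UTR, and the Hoxa3 site starts at base 280. A miR-196 match was present in the 3′ UTR of 9 of 39 Hox genes (23.1%) against 6.12% of 20589 genes, although the Hox 3′ UTRs were shorter on average (980 against 1484 bases). A miR-10 match was present in 4 of 39 (10.3%) against 12.6%. Such a match is a description of the sequence and not a measured site.

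No member with a match was called higher in the mutants. Of the 9 members with a miR-196 match, 3 were tested in the Dgcr8 line (Hoxa7, Hoxa9 and Hoxb7), and their log2 fold changes had a median of -0.64, compared with -0.27 over the 14 tested without one. In the Dicer line 4 were tested, with a median of -0.38 against -0.35 in the 14 others. Of the 4 members with a miR-10 match, Hoxa3 and Hoxb3 were tested in the Dgcr8 line (median -1.07 against -0.22 in the 15 others) and Hoxb3 in the Dicer line (-0.34). All of these values are below 0, but among them only Hoxa3 and Hoxa7 in the Dgcr8 line passed the test. Both had been called lower before matches were compared, and both lie on the side with a match. The miR-10 median in the Dgcr8 line is that of Hoxa3 (-1.57) and Hoxb3 (-0.58) alone. These medians are therefore no test of an effect of a match. Another miRNA of the clusters, miR-615-3p (chromosome 15, 103014969 to 103014990, plus strand, within the gene bounds of Hoxc5), had a match in the 3′ UTR of 1 member, Hoxb4. The log2 fold change of Hoxb4 was -0.33 ± 0.33 in the Dgcr8 line and 0.25 ± 0.31 in the Dicer line (adjusted p = 0.44 and 0.60).

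Most members tested had lower values in both mutants. In Dgcr8 iKO nerves 14 of 17 had a log2 fold change below 0 (median -0.33 over the members and -0.01 over all genes), or 12 of 15 without Hoxa3 and Hoxa7 (median -0.22), and in Dicer iKO nerves 16 of 18 (median -0.36 and -0.01). Before normalization, summed Hox counts were 60.4 to 62.9 CPM in Dgcr8 control and 53.8 to 56.6 CPM in Dgcr8 iKO nerves, and 67.5 to 77.2 CPM in Dicer control and 57.7 to 60.2 CPM in Dicer iKO nerves, with no overlap in either line. Among the members tested, libraries of mutant and control did not overlap for 4 lower in Dgcr8 iKO (Hoxa3, Hoxa7, Hoxa10 and Hoxd9, against 27% of all genes) and for 2 lower in Dicer iKO (Hoxc6 and Hoxd9, against 20% of all genes), and for none higher in either (28.9% and 21.9% of all genes). Of the members not tested, 4 of 22 were lower and 1 higher in Dgcr8 iKO without overlap, and 0 of 21 in Dicer iKO. The share over all genes not tested was not computed for either line, so no direction is read from these counts. Precision was low: the 95% interval lay within a 2-fold change either way for 6 of 17 and 7 of 18 members, against 63.3% and 71.7% of all genes.

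Hoxd8 was the highest member by TPM in all 12 iKO libraries. It stood at 11.2, 11.9 and 12.7 CPM in Dgcr8 control and 12.4, 13.3 and 16.8 CPM in Dgcr8 iKO (0.25 ± 0.18, adjusted p = 0.28), and at 12.2, 13.6 and 18.8 CPM in Dicer control and 9.14, 9.32 and 13.6 CPM in Dicer iKO (-0.47 ± 0.24, adjusted p = 0.19). Mutants and controls overlapped in both lines. Hoxc6 stood at 2.01, 2.90 and 2.99 CPM in Dgcr8 control and 2.80, 3.18 and 3.81 CPM in Dgcr8 iKO (0.31 ± 0.30, adjusted p = 0.43). In the Dicer line it stood at 4.31, 4.59 and 5.16 CPM in control and 2.35, 2.40 and 3.80 CPM in iKO nerves, which did not overlap (-0.73 ± 0.29, adjusted p = 0.12).

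Hoxc5, Hoxc4, Hoxb4 and Hoxb7 overlapped between mutants and controls in both lines. Hoxc5 stood at 4.37, 5.39 and 5.44 CPM in Dgcr8 control, 4.08, 4.36 and 5.34 CPM in Dgcr8 iKO, 6.21, 6.62 and 9.19 CPM in Dicer control and 4.66, 6.78 and 8.28 CPM in Dicer iKO. Hoxc4 stood at 1.77, 2.59 and 3.27 CPM, 2.19, 2.22 and 2.83 CPM, 3.31, 4.32 and 5.17 CPM and 1.73, 2.53 and 4.29 CPM in the same order of groups. For Hoxc4, the Dicer difference was -0.56 ± 0.38 (adjusted p = 0.33). Hoxb4 stood at 2.24, 2.45 and 3.52 CPM, 1.81, 2.33 and 2.48 CPM, 2.01, 2.38 and 2.43 CPM and 2.13, 2.77 and 3.28 CPM in that order. Hoxb7 stood at 1.77, 2.18 and 2.60 CPM, 1.91, 2.01 and 2.57 CPM, 1.19, 2.16 and 2.30 CPM and 1.21, 1.86 and 2.08 CPM. The remaining differences of these 4 genes were under 1 SE.

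**Figure D5:**
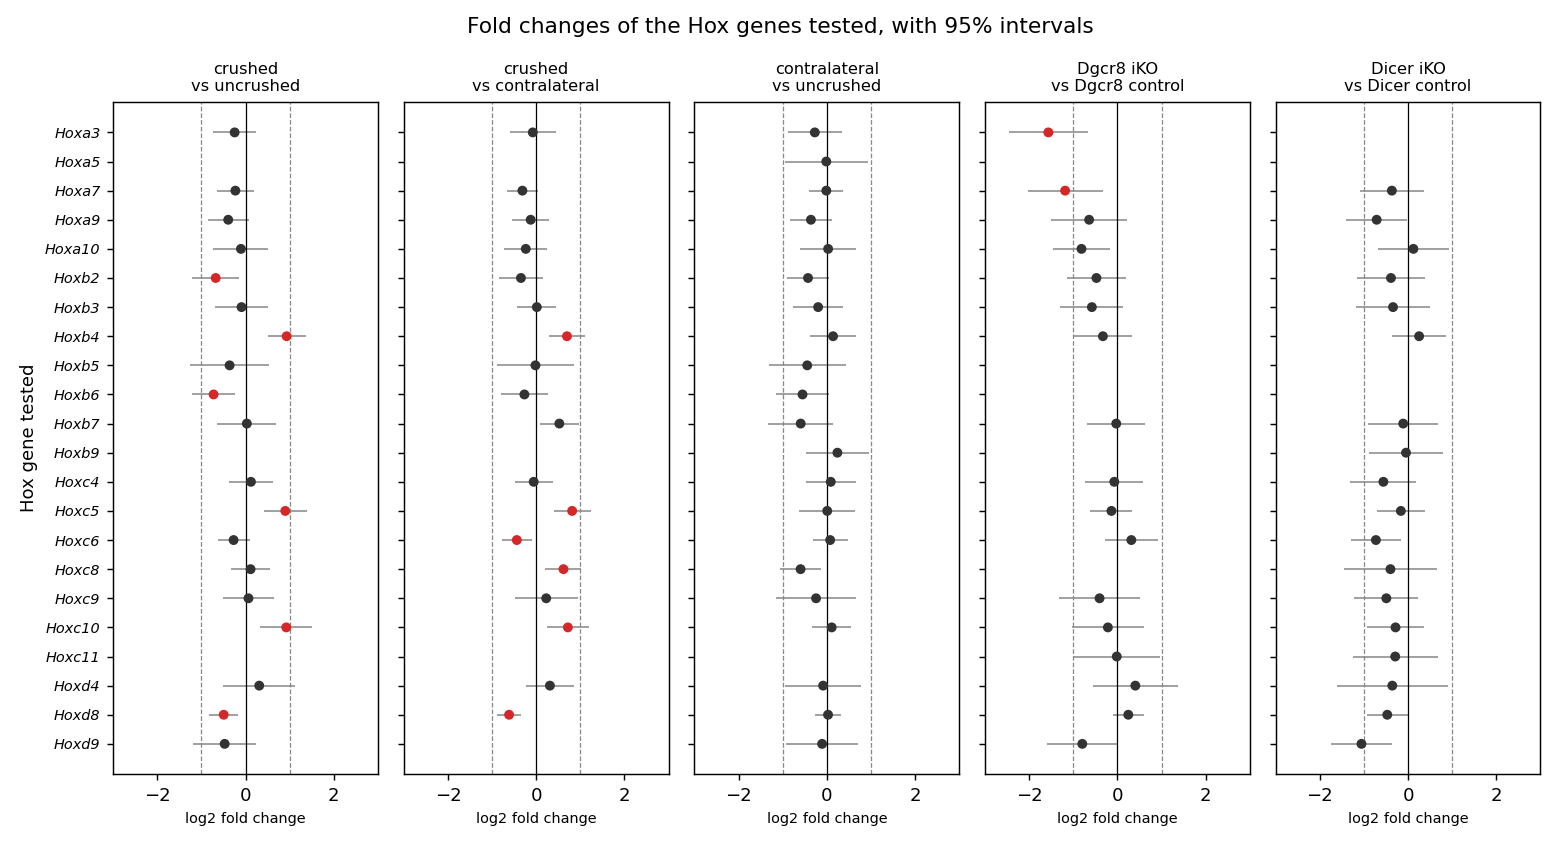
Log2 fold change of each tested Hox gene (points) with its 95% interval (bars) in 5 comparisons, 1 panel each, with dashed lines at a 2-fold change. Red marks an adjusted p of at most 0.05, which 6 of 19 and 6 of 18 members reached in the crush comparisons, 2 of 17 in Dgcr8 iKO, and none in Dicer iKO or between contralateral and uncrushed nerves.

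A different response to the loss of Dgcr8 and of Dicer was not detected for any member. In a fit over the 12 iKO libraries, 0 of 19 members passed the adjusted p for the difference between the 2 effects, as did 0.0148% of 13552 genes, and 3 members passed an unadjusted p under 0.05 (13.7% of all genes). These were Hoxc6 (1.05 ± 0.40, adjusted p = 0.29), Hoxd8 (0.72 ± 0.29, adjusted p = 0.32) and Hoxb9 (-1.68 ± 0.65, adjusted p = 0.29), where a positive value is a higher effect in the Dgcr8 line. The difference was -0.88 ± 0.68 for Hoxa3 and -0.81 ± 0.61 for Hoxa7 (adjusted p = 0.60 and 0.59), so their fall in the Dgcr8 line alone is not shown to differ from the Dicer line. DESeq2 called no member here.

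The control nerves of the 2 lines, which differ in the floxed gene, gave 0 of 19 called members (0.0312% of 12823 genes), 3 at an unadjusted p under 0.05 (Hoxc4, Hoxc5 and Hoxc6, against 18.7% of all genes), and none in DESeq2. Among the members tested, libraries did not overlap for 5 lower in Dgcr8 controls (11% of all genes), all of them in HoxC (Hoxc4, Hoxc5, Hoxc6, Hoxc9 and Hoxc10), and for 1 higher, Hoxa3 (12.5% of all genes). The largest of these was Hoxc6, at -0.85 ± 0.28 (adjusted p = 0.17).

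The cell makeup differed between mutants and controls as well. Macrophage markers rose in both lines, 6 of 6 in Dgcr8 iKO (sum 164 to 190 CPM in controls, 808 to 1859 CPM in iKO) and 5 of 6 in Dicer iKO (160 to 491 CPM and 1037 to 1801 CPM), and so did all 4 cycling-cell markers. Fibroblast markers rose for 4 of 7 in Dgcr8 iKO (6349 to 8055 CPM and 13200 to 16305 CPM) and 2 of 7 in Dicer iKO (5452 to 14484 CPM and 16957 to 17728 CPM). Of the 9 myelinating SC markers 5 fell in Dgcr8 iKO and 0 were called in Dicer iKO. Of the 5 general SC markers 1 fell in Dgcr8 iKO (S100b) and none in Dicer iKO, and of the 5 endothelial markers 1 fell in Dgcr8 iKO (Cldn5). Of the 4 perineurial markers 1 rose in Dgcr8 iKO (Cldn1) and 1 fell in Dicer iKO (Itgb4), the neutrophil marker Retnlg rose in Dgcr8 iKO, and no pericyte or lymphocyte marker was called in either line. Their part in the Hox differences was not tested. Summed markers of skeletal muscle and adipocytes stayed at or below 17.8 and 80.9 CPM in every library.

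HOX proteins bind DNA together with TALE homeodomain cofactors of the Pbx, Meis and Pknox families. Meis3, a partner of HOX proteins in hindbrain and trunk, stood at 3.07, 5.50 and 7.46 CPM in uncrushed, 4.34, 4.71, 4.92 and 6.32 CPM in contralateral and 8.47, 12.2, 12.7 and 14.5 CPM in crushed nerves. It rose by 1.196 ± 0.27 (adjusted p = 0.0018) and 1.26 ± 0.18 (adjusted p = 2.7e-05), with all crushed libraries above all controls. It also rose in Dicer iKO, from 4.46, 6.61 and 7.93 CPM to 10.8, 13.2 and 14.3 CPM (1.01 ± 0.25, adjusted p = 0.026), and in Dgcr8 iKO was higher by under 2-fold, at 12.02, 12.8 and 14.3 CPM against 6.22, 7.07 and 7.67 CPM (0.90 ± 0.19, adjusted p = 0.0024). Of the cofactors tested, 2 of 8 rose against uncrushed nerves (Meis3 and Pknox1), where 36.5% of all genes were called. Against contralateral nerves 1 of 9 rose and 1 fell (Pbx4), where 28.3% of all genes were called. In Dgcr8 and Dicer iKO 0 of 9 and 1 of 9 were called, against 20.4% and 9.01% of all genes.

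Polycomb and trithorax proteins keep Hox genes silent or active, and 12 such regulators were tested. Cbx7, a Polycomb subunit that reads the repressive histone mark, stood at 24.9 to 30.3 CPM in uncrushed, 29.0 to 38.8 CPM in contralateral and 3.30 to 4.09 CPM in crushed nerves and fell by 2.83 ± 0.14 (adjusted p = 6.7e-09) and 3.22 ± 0.13 (adjusted p = 3.6e-11). It fell by 1.36 ± 0.21 in Dgcr8 iKO (adjusted p = 0.00044) and was lower by under 2-fold in Dicer iKO (-0.96 ± 0.17, adjusted p = 0.0087). Ezh2, the methyltransferase that lays down the mark, rose by 1.29 ± 0.12 (adjusted p = 2.2e-06) against uncrushed and by 1.26 ± 0.09 (adjusted p = 1.0e-08) against contralateral nerves, where cycling-cell markers rose too. Of the 12, 1 rose and 1 fell against uncrushed nerves, where 36.5% of all genes were called. Against contralateral nerves 1 rose and 3 fell, where 28.3% of all genes were called. In Dgcr8 iKO 1 fell and in Dicer iKO none was called, against 20.4% and 9.01% of all genes.

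Of 8 genes of limb position, Shox2, a homeobox gene of the proximal limb, was well detected, with 63 to 155 counts in crush and 44.0 to 132 counts in iKO libraries. The other 7 had 0 to 26.2 and 0 to 11 counts. Of the 8, 4 were tested against uncrushed nerves, where Isl1, Lmx1b and Tbx5 fell and 36.5% of all genes were called. These 3 had 1 to 26.2 counts in crush libraries, against 4 to 21 for the head gene Otx1. Against contralateral nerves 2 of the 8 were tested and none was called, where 28.3% of all genes were called. Shox2 was higher there by under 2-fold (0.60 ± 0.17, adjusted p = 0.0073). Shox2 alone was tested in each iKO line and was not called. In a list of 8 genes of the head (Otx1, Otx2, Emx1, Emx2 and Gbx2) and of the tail end (Cdx1, Cdx2 and Cdx4), only Otx1 was tested after crush, against uncrushed nerves, where it fell by 1.51 (adjusted p = 0.0072), and none was tested in the iKO lines.

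The genes whose level followed Hoxd8 most closely over the 11 crush libraries, among 14307 genes, were Snap25 (Spearman 0.99), Ippk (0.96) and Rhbdd2 (0.96). This is a description of libraries that share the difference between crushed and control nerves.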

How the data were processed

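Total RNA of the SN was sequenced after ribosomal depletion. Per the study's methods the authors used Trimmomatic for trimming, STAR for alignment to GRCm38 and RSEM with Ensembl annotation for quantification. The annotation release and the strand setting are not given in the sources used here. The deposited tables give, for each transcript, RSEM's expected count and a TPM value that the authors' RSEM run scaled by transcript length. By the labels, the crush experiment used a SMARTer Stranded Pico kit and the iKO experiment a TruSeq kit with Ribo-Zero, whereas the methods describe TruSeq alone.

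Here, expected counts of all transcripts of a gene were added and rounded. Groups came from the labels. In each comparison of 2 groups, genes passing filterByExpr (minimum count 10) were scaled by TMM and tested with the quasi-likelihood test of edgeR 4.0.16 in R 4.3.3, with Benjamini-Hochberg adjustment over all genes. A call needed an adjusted p of at most 0.05 and a fold change of at least 2. SE was the log2 fold change divided by the root of the F statistic, and the approximate 95% interval is 1.96 SE either way. The effect of Dgcr8 loss was compared with that of Dicer loss as an interaction over 12 libraries. The 3-count level allows for counting error only, since PCR copies are not independent molecules. DESeq2 1.42.0, RLE scaling, no filter, protein-coding genes only, a replicate block, 1 fit over all groups and leaving out each library were alternatives. Scripts were tested on simulated data. Summaries and figures used Python 3.11.15, pandas 2.3.3, scipy 1.17.1 and matplotlib 3.10.9.

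The values of 1 member are not reported here by name. Named in full were the members called in a comparison and the 6 with the highest median deposited TPM. The members and the lists (cell type markers, TALE cofactors, chromatin regulators, limb genes, head and tail-end genes, genes of the clusters) were chosen with earlier results of these data known. Of 27 replicate pairs, none was a duplicate (chi-square per degree of freedom 4.36 to 42.4). Uncrushed replicate 3 is numbered by its title, and its description carries another number.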

Additional observations from a re-analysis of the deposited data

Results flagged for a closer look

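In the 2 groups of 4 libraries, 65 sets of 4 values were examined for a library far from the other 3, and 6 were found, where chance gives about 1 in 20. Hoxc10 in crushed replicate 1 was 2.65 CPM, below the 5.62 to 6.22 CPM of the other crushed libraries, and without it Hoxc10 was called higher than in uncrushed nerves. Hoxc9 in crushed replicate 4 was 3.86 CPM, above 2.57 to 2.69 CPM. Contralateral replicate 3 had 3.61 CPM of Hoxa9 (2.45 to 2.51 CPM in the others) and 0.100 CPM of Hoxd10, a single count (0.471 to 0.513 CPM). Contralateral replicate 1 had 0.849 CPM of Hoxa11, 9 counts (0.301 to 0.393 CPM), and contralateral replicate 4 had 1.95 CPM of Hoxd9 (0.903 to 1.04 CPM).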

How the results depend on the processing

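Without the fold limit, 3 members were higher and 3 lower in crushed than in uncrushed nerves, and 4 higher and 2 lower than in contralateral nerves. With no filter on counts, 3 were called higher than in uncrushed nerves (Hoxb4, Hoxc5 and Hoxc10), where the median of all genes moved from -0.03 to -0.39. Leaving out 1 library gave 0 to 2 members called higher and 0 to 2 lower in crushed than in uncrushed nerves. Hoxb4 was called without crushed replicate 2, Hoxc10 without crushed replicate 1, both without uncrushed replicate 2, and Hoxc5 higher with 2 members lower without uncrushed replicate 1. Against contralateral nerves no library changed the count of 0. In Dgcr8 iKO, DESeq2 called 1 member lower, and leaving out 1 library gave 1 to 2, with Hoxb9 called in place of Hoxa7 or of both genes without control replicate 3, iKO replicate 2 or iKO replicate 3. Of the 6 highest members by deposited TPM, 3 were among the 6 highest after rescaling. The HoxD share of the crush libraries had a median of 15.6%, and 18.5% with CPM in place of TPM. The cause of these changes was not tested.

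No result changed direction. Of the other values, 190 main counts and shares and 459 single-gene values kept their side of the threshold, 8 single-gene values gained it and 8 lost it. With the replicate number as a block, no count of called members changed, while at the adjusted p alone 2 members were higher and 1 lower against uncrushed nerves. Same-numbered libraries correlated at -0.17 to 0.21 in the crush and -0.19 to 0.24 in the iKO experiment. Such values cannot show whether the numbers pair libraries of 1 mouse. Per the study's methods both nerves of the crushed mice were harvested, and the main test treats them as unpaired. Members with few counts had wide intervals, and 18 to 22 of 39 were not tested in a comparison.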
